A study of Mus musculus with 4 samples.

Results

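Transcripts of 43 sarcomere protein genes, sorted by muscle isoform, were read from C2C12 cells after depletion of Fxr1. The set was every non-control probe of the arrays whose gene name was one of the 43, which gave 60 of 55681 probes and 43 of 36413 gene names. It held 3 embryonic or neonatal isoforms, 15 slow or cardiac isoforms, 12 adult fast isoforms and 13 genes that fibre types have in common. C2C12 is a mouse myoblast line, and all samples come from this 1 line. Cells of the siFxr1 group were transfected with siRNA against exon 14 of Fxr1, and cells of the siControl group with a random siRNA of matching GC content, both by lipofection and both analysed 48 hours later. Each group had 2 biological replicates, labelled experiment 1 and experiment 2, so that 4 one-colour arrays were available, and each experiment had a slide of its own that held both conditions. RNA integrity was scored 8 in siFxr1 of experiment 1 and 9 in the other samples. Experiment and slide cannot be told apart.

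The sarcomere is the contractile unit of striated muscle, in which myosin thick filaments slide along actin thin filaments between Z-discs. Most of its proteins exist as isoforms from separate genes, and developing fibres pass from embryonic and neonatal myosins to slow or fast adult forms. Troponin and tropomyosin on the thin filament make contraction depend on calcium. Many cardiac isoforms are also expressed in early skeletal muscle. In culture, myoblasts that leave the cell cycle and fuse switch these genes on together, downstream of the MyoD family and Mef2 factors.

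Values are log2 signals after quantile normalization, and differences are on the same log2 scale. A level is compared only between arrays for the same probe, never between genes. Between 45.4% and 52.9% of probes were well above background on an array, a mark set by the scanner software, and no spot was saturated. The number of arrays limits the precision. Fxr1 itself, read by its brighter probe, had a signal of 10.15 and 10.77 in siFxr1 of experiments 1 and 2 and of 13.85 and 13.71 in siControl, so the targeted transcript was lower in both. Myod1 had signals of 13.77 and 13.07 in siFxr1 and of 13.93 and 13.80 in siControl, and it marks the cells as myogenic. Desmin, the muscle intermediate filament, lay between 14.00 and 14.48. Of the 43 genes, 39 were measured above background. The adult fast genes Myh2 and Mybpc2 and the cardiac genes Mybpc3 and Myl2 were not well above background on any array. In a whole culture, fewer cells of a type and less RNA per cell cannot be told apart.

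Few sarcomere transcripts differed the same way by 2-fold or more between siFxr1 and siControl in both experiments. Myh4, the fast IIb myosin heavy chain, and Myh7, the slow and beta cardiac heavy chain, were at least 2-fold higher. Tnni3, the cardiac inhibitory troponin, and Tmod1, which caps the pointed end of the thin filament, were at least 2-fold lower. These 2 of 39 in each direction, 5.13%, stand beside 2.11% of all measured genes that were at least 2-fold higher and 1.48% that were at least 2-fold lower. None of the 43 genes was called in the limma fit of condition alone, where a B value (log odds of a change) above 0 was the rule. That fit called 0% of all probes, Fxr1 included. It gave 2764 probes and, among the sarcomere genes, Tnni3 alone an unadjusted p under 0.05. Of 19131 measured genes without missing values, 1321 had such a p. A fit blocked on experiment again called 0 probes, while 4927 probes and 8 sarcomere genes had an unadjusted p under 0.05. In the blocked fit, 2328 of the 19131 genes did. A fit with the block and only probes well above background was chosen after seeing the data. It called 354 probes, and Tnni3 was the one sarcomere gene among them.

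**Figure D1:**
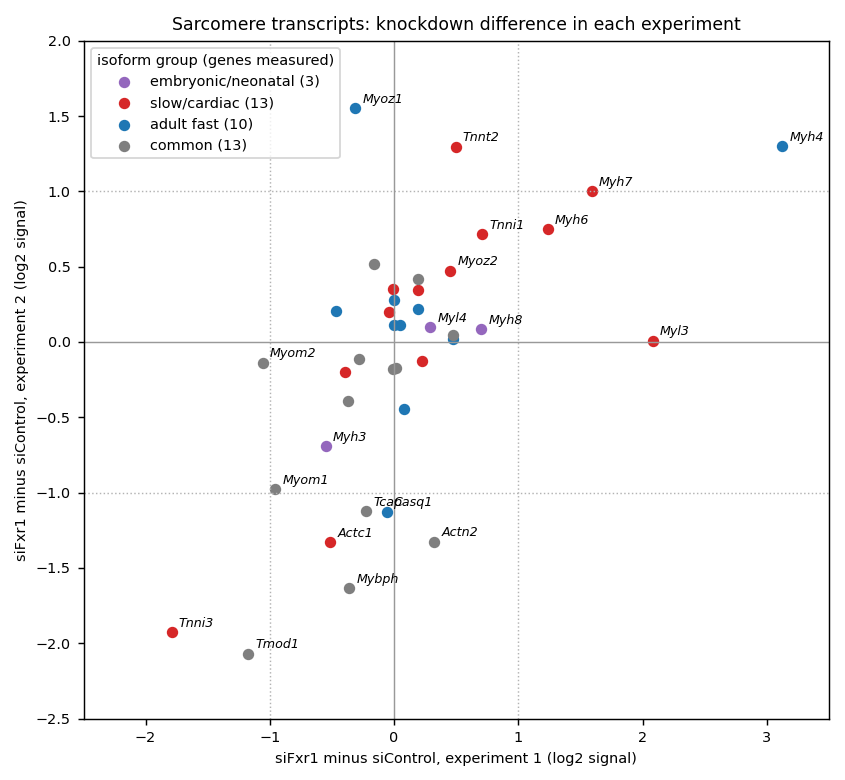
Each point is 1 of 39 measured sarcomere genes, with siFxr1 minus siControl in log2 signal in experiment 1 on the horizontal axis and in experiment 2 on the vertical axis. Dotted lines mark a 2-fold difference, past which Myh4 and Myh7 lie on the higher side in both experiments and Tnni3 and Tmod1 on the lower side.

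Tnni3 is the troponin I of the heart. Its signal was 7.13 and 6.11 in siFxr1 of experiments 1 and 2 and 8.92 and 8.04 in siControl. Both siFxr1 arrays were below both siControl arrays. The difference was -1.79 and -1.93 in the 2 experiments, with a mean of -1.86 (SE 0.55, n = 2 per group). With the experiment as a block and only probes well above background, limma gave it a B value of 1.36 and an adjusted p of 0.0382. Tnni3 thus fell in that fit, which was chosen after seeing the data. The same fit called 0.434% of all measured genes lower and 0.883% higher. Tnni1, the slow skeletal troponin I, differed the other way, by 0.71 in experiment 1 and 0.72 in experiment 2. Tnni2, the fast skeletal troponin I, differed by 0.00 and 0.12. The 3 troponin I isoforms thus had a lower, a higher and a nearly level mean in siFxr1, of which the first alone was called.

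Myh4 encodes the heavy chain of the fastest fibres. It had a signal of 11.62 and 8.76 in siFxr1 and of 8.49 and 7.46 in siControl. The lower siFxr1 array was above the higher siControl array, by less than the gap between the siFxr1 arrays. The difference was 3.12 in experiment 1 and 1.30 in experiment 2, with a mean of 2.21 (SE 1.20, and 0.55 with the experiment as a block). Leaving out 1 array at a time moved it between 0.78 and 3.64. Myh7 had a signal of 11.13 and 8.56 in siFxr1 and of 9.53 and 7.56 in siControl, so its groups overlapped. It was higher by 1.59 and 1.00, with a mean of 1.30 (SE 1.28, and 0.26 with the block), and the mean was 0.02 without siFxr1 replicate 1. Tmod1 had a signal of 8.55 and 7.00 in siFxr1 and of 9.72 and 9.07 in siControl, and its groups did not overlap. It was lower by 1.17 and 2.07, a mean of -1.62 (SE 0.67). In the fit with block and filter, the limma adjusted p was 0.0814 for Myh4, 0.0825 for Myh7 and 0.0714 for Tmod1. Under 75th percentile scaling or normexp background correction Myh4 stayed past 2-fold in both experiments and Myh7 did not, and neither did without background correction or in the authors' table. Tmod1 fell short of that size under normexp, without background correction and in the authors' table, and Tnni3 kept it in all of these.

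The first 30 bases of the probes that read these isoforms are shown, since near relatives could share sequence. The longest run in common between probes of different sarcomere genes was 13 bases, and the Myh1 and Myh4 probes had a run of 10 in common, of 60. Positions are those of the array, on mm9.
Myh4, chr11:67073834-67073893, plus strand: gaagaataatccatctttctgttgagaggt
Myh1, chr11:67038002-67038061, plus strand: gatgagcaaaatgtgaagatctttgtcact
Myh7, chr14:55589581-55589640, minus strand: atgaggagtagctcttgtgctacccagctc
Tnni3, chr7:4472043-4472102, minus strand: gtggacaaagtggatgaagagagatatgac

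The other myosin heavy chains did not differ by 2-fold in both experiments. Myh3, the embryonic heavy chain, had a signal of 15.64 and 13.64 in siFxr1 and of 16.20 and 14.33 in siControl, and was lower by 0.55 and 0.69. Myh8, the neonatal heavy chain, had a signal of 12.57 and 9.75 in siFxr1 and of 11.87 and 9.66 in siControl. Its difference was 0.70 in experiment 1 and 0.09 in experiment 2. For both genes the 2 arrays of experiment 1 were above the 2 arrays of experiment 2, whatever the siRNA. Myh6, the alpha cardiac heavy chain, had a signal of 7.19 and 5.08 in siFxr1 and of 5.96 and 4.33 in siControl, the last not well above background. It was higher by 1.24 and 0.75. Myh1, the fast IIx heavy chain, had a signal of 11.63 and 7.85 in siFxr1 and of 11.54 and 8.30 in siControl, with differences of 0.08 and -0.45. Myh2, the fast IIa heavy chain, had signals between 2.73 and 3.45 and was not well above background on any array.

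**Figure D2:**
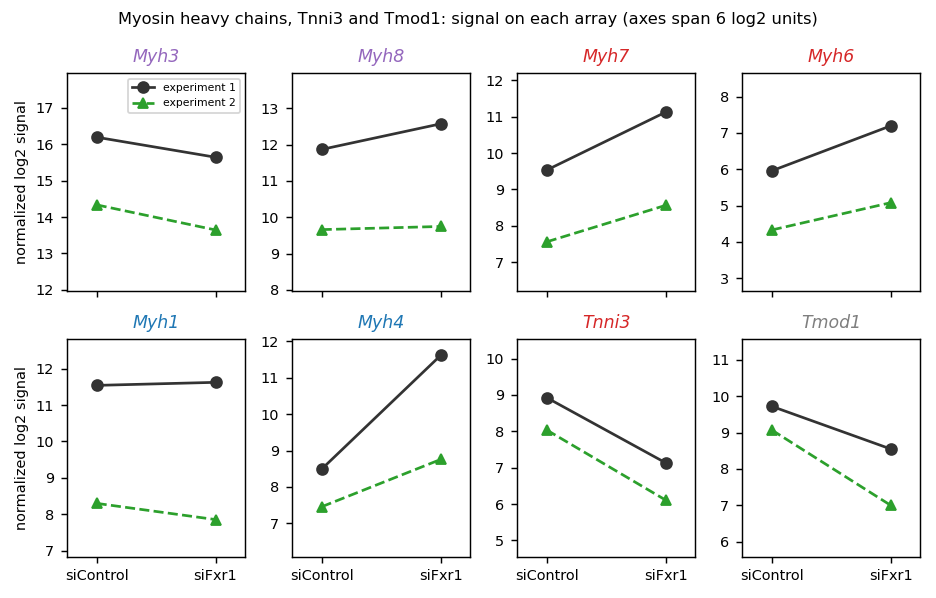
Normalized log2 signal of 8 probes in siControl and siFxr1, with 1 line for each experiment and 1 array per point. Experiment 1 lies above experiment 2 in every panel, Myh4 and Myh7 are higher in siFxr1 in both experiments, and Tnni3 and Tmod1 are lower in both.

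Neighbouring genes had like differences at some loci and unlike ones at others. The probes of Myh3, Myh2, Myh1, Myh4 and Myh8 follow in that order along chromosome 11, and the Myh4 probe lies 35772 bases from that of Myh1 and 48031 bases from that of Myh8. The mean differences of Myh1, Myh4 and Myh8 were -0.18, 2.21 and 0.39. On chromosome 7, the Tnni3 probe lies 15.7 kb from the probe of Tnnt1, the slow troponin T, whose mean difference was 0.08 against -1.86 for Tnni3. On chromosome 14, Myh6 and Myh7 are 28.7 kb apart and differed by 0.99 and 1.30. On chromosome 1, Tnni1 and Tnnt2, the cardiac troponin T, are 41.8 kb apart and differed by 0.71 and 0.90. None of these neighbours other than Tnni3 was called between the conditions in the fits with or without the block or the filter.

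By isoform group, the differences between siFxr1 and siControl had no common direction. The median over all 39 measured genes was 0.08, beside 0.03 over all genes. Of the 39, 16 were higher in both experiments, 13 lower in both and 10 mixed. Over all 19131 measured genes without missing values, these counts were 6520, 5712 and 6899. The embryonic and neonatal genes had a median of 0.20, with Myh8 and Myl4 higher and Myh3 lower in both experiments. Myl4, the embryonic and atrial essential light chain, had a signal of 16.47 and 14.27 in siFxr1 and of 16.18 and 14.17 in siControl. The 13 measured slow or cardiac genes had a median of 0.27, with 7 higher in both, 3 lower in both and 3 mixed. Of the 7 higher, Myh6 and Myl3 counted as measured through siFxr1 only, the group where they were higher. The 10 measured adult fast genes had a median of 0.11, with 5 higher, 1 lower and 4 mixed. The 1 lower, Casq1, counted as measured through siControl only, and Myoz1, which was mixed, through siFxr1 only. The 13 common genes had a median of -0.38, with 2 higher, 8 lower and 3 mixed. With 1 array left out, the arrays that stay no longer balance the experiments. The median of all members then became -0.93 without siFxr1 replicate 1 and -0.92 without siControl replicate 2, and that of the common genes 0.48 without siFxr1 replicate 2 and 0.27 without siControl replicate 1.

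Among the slow or cardiac genes, Myl3, the slow and ventricular essential light chain, had a mean difference of 1.05 that depended on the background correction. It was 0.25 under normexp and 0.19 without background correction, below Myh6 at 0.44 and 0.40. Its signal was 5.68 and 4.91 in siFxr1 and 3.60 and 4.90 in siControl, the first siControl value not well above background. Its difference of 2.08 in experiment 1 and 0.01 in experiment 2 thus rested on 1 array. Tnnt2 was higher by 0.50 and 1.30 and Myoz2, a calcineurin-binding Z-disc protein of slow fibres, by 0.45 and 0.47. Actc1, the cardiac alpha actin, was lower by 0.51 and 1.33. Tpm3, the slow tropomyosin, was lower by 0.39 and 0.20, and Tnnc1, the slow and cardiac calcium-binding troponin, was higher by 0.19 and 0.35. None of these genes was called.

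Among the adult fast genes, Myoz1, the fast counterpart of Myoz2, had a signal of 5.98 and 4.71 in siFxr1 and of 6.29 and 3.16 in siControl, the last not well above background. It was lower by 0.31 in experiment 1 and higher by 1.55 in experiment 2. Casq1, which binds calcium in the sarcoplasmic reticulum of fast fibres, had a signal of 6.48 and 3.97 in siFxr1 and of 6.54 and 5.10 in siControl, the second siFxr1 value not well above background. It differed by -0.06 and -1.13. The fast troponins and light chains differed by less than 2-fold in both experiments. Tnnt3 differed by 0.05 and 0.11, Mylpf by 0.47 and 0.02 and Tnnc2 by -0.47 and 0.21. Myl1, the fast essential light chain, differed by 0.00 and 0.28 at its brightest probe and by 0.71 and 0.32 at its second probe. Actn3, the fast alpha-actinin, was higher by 0.19 and 0.22.

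Among the common genes, Mybph, a myosin-binding protein of the thick filament, had a signal of 12.55 and 10.14 in siFxr1 and of 12.91 and 11.77 in siControl. It was lower by 0.36 and 1.63. Myom1, which links myosin filaments at the M-band, had a signal of 9.53 and 6.45 in siFxr1 and of 10.48 and 7.43 in siControl. It was lower by 0.96 and 0.98, just inside 2-fold in each experiment, and its groups overlapped because the experiments lay further apart than the conditions. Myom2, the second M-band protein, was lower by 1.06 and 0.14. Tcap, which joins titin ends at the Z-disc, was lower by 0.23 and 1.12. Acta1, the adult skeletal alpha actin, differed by -0.01 and -0.18. Actn2 went opposite ways, at 0.32 and -1.33. Tpm2 differed by 0.02 and -0.17. None of them was called.

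The difference between the experiments was larger and ran 1 way for nearly the whole set. Experiment 1 was higher than experiment 2 for 35 of 39 measured genes in both conditions, and lower for 3 in both. Over all 20191 measured genes without missing values, 7910 were higher in both and 7353 lower in both. The median difference of the sarcomere genes was 1.92, beside 0.02 over all genes. At least 2-fold higher in both conditions were 29 genes, 74.4% of those measured, where 5.07% of all measured genes reached that size. None was at least 2-fold lower in both, where 7.42% of all genes were. Among the 29, Myh6, Myoz1 and Casq1 were well above background on both arrays in experiment 1 only. The count of 29 became 27 under 75th percentile scaling. It became 25 under normexp, without background correction and in the authors' table. In the limma fit of all probes, with condition and experiment as terms, 0% of genes passed an adjusted p of 0.05. The lowest adjusted p was 0.108, while 11172 probes and 34 sarcomere genes had an unadjusted p under 0.05. Of 20191 measured genes without missing values, 5786 had such an unadjusted p. Fitted over only probes well above background, the same model called 31 of 39 sarcomere genes higher in experiment 1, with adjusted p from 0.00477 to 0.0427, where 7.99% of all measured genes were called higher. At a B value above 0 in the fit of all probes, Myh1, Mylpf, Tnni2 and Myom1 were called, beside 0.579% of all genes.

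**Figure D3:**
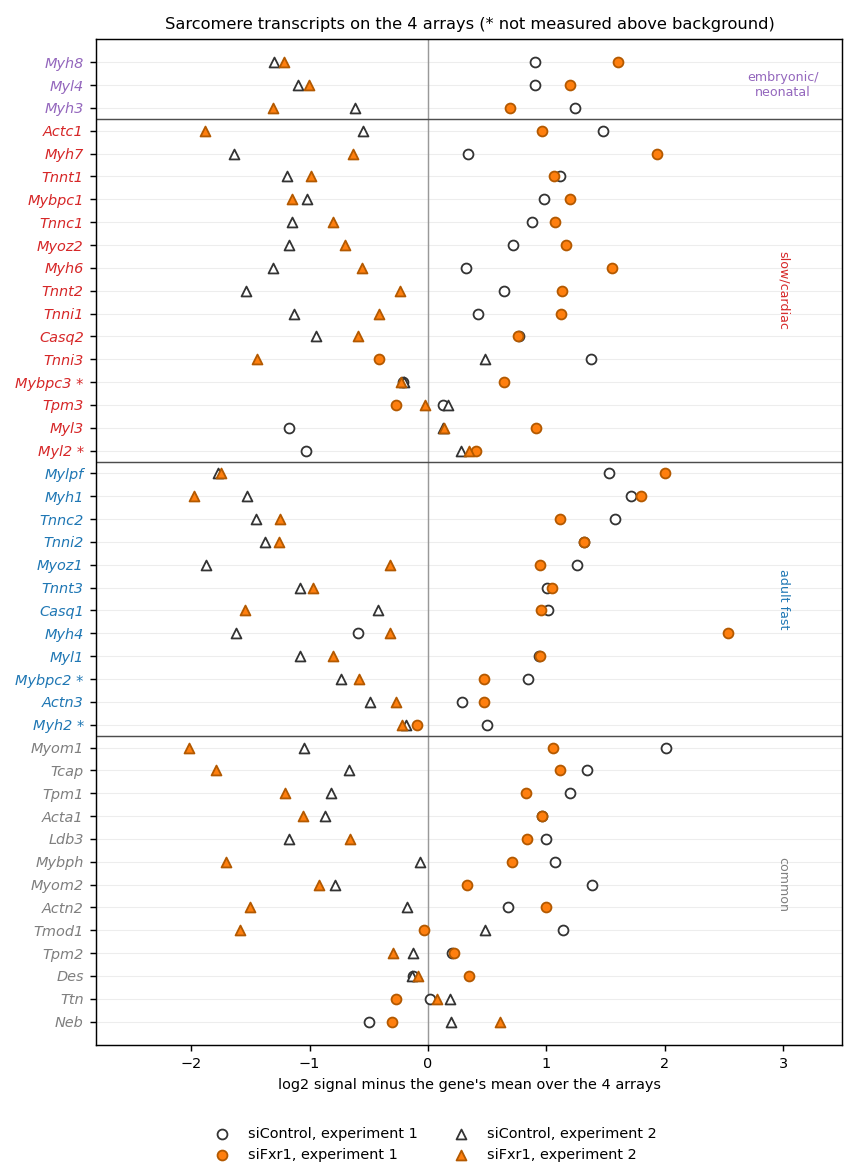
Each row is 1 of the 43 genes, coloured by isoform group, and each symbol is 1 array, placed at its log2 signal minus the gene's mean over the 4 arrays. Circles (experiment 1) lie to the right of triangles (experiment 2) for most genes, while filled siFxr1 and open siControl symbols are interleaved.

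The fast isoforms Mylpf and Myh1 and the M-band gene Myom1 had the largest differences between the experiments among the measured genes. Mylpf, the fast regulatory light chain, had a signal of 9.97 and 9.50 in experiment 1 (siFxr1, then siControl) and of 6.23 and 6.20 in experiment 2. The arrays of the 2 experiments did not overlap, and the mean difference of 3.53 was a fold of 11.5. Myh1 was higher in experiment 1 by 3.24 in siControl and 3.77 in siFxr1, a fold of 11.4. Myom1 was higher by 3.06 and 3.08, a fold of 8.38. Tnnc2 and Tnni2, 2 subunits of fast troponin, were higher by means of 2.70 and 2.64. For Mylpf, Myh1 and Myom1 the limma adjusted p was 0.00477 in the fit over probes well above background.

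All isoform groups took part in this difference. The 3 embryonic and neonatal genes were higher in experiment 1 by a median of 2.10, and all 3 were called in the filtered fit. The slow or cardiac genes had a median of 1.87, with 11 of 13 called, all but Myl3 and Tpm3. Tpm3 was read here by its brightest probe. Its second probe was higher in experiment 1 by 2.92 in siControl and 3.29 in siFxr1, though dim in experiment 2. The adult fast genes had a median of 2.12, with 9 of 10 called, all but Actn3. The common genes had a median of 1.71, with 8 of 13 called. The 5 others were Des, Ttn, Neb, Tpm2 and Tmod1. Desmin had a signal of 14.48 and 14.01 in experiment 1 and of 14.05 and 14.00 in experiment 2, a mean difference of 0.22. Neb, the giant protein along the thin filament, was lower in experiment 1 by 0.69 in siControl and 0.91 in siFxr1 at its brightest probe. Its second probe, also well above background on the 4 arrays, differed by 0.47 in siControl and -0.36 in siFxr1, so the direction was not shared by both probes. Whether groups differ from each other was not tested.

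The genes at 2-fold between the conditions also differed between the experiments. Tnni3 was higher in experiment 1 by 0.89 in siControl and 1.02 in siFxr1, less than its difference between conditions. Tmod1 was higher by 0.65 and 1.55. For Myh4 the gap between experiments was 1.04 in siControl and 2.86 in siFxr1. For Myh7 it was 1.97 and 2.56, larger than its difference between conditions. Over the 39 genes, the siFxr1 difference in experiment 1 correlated with that in experiment 2 at r = 0.60 (Spearman's rho 0.58), beside r = 0.50 over all 19140 measured genes. This is a description across genes, which are not independent replicates and share the arrays.

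Different probes of the same gene gave different answers for Tpm1, Tpm3 and Ttn, whose genes make several transcripts. Tpm1, which encodes alpha tropomyosin, had 5 probes, and all were well above background on the 4 arrays. The pair assigned to NM_001164248 overlaps by 46 of 60 bases and so does not count as separate readings. These probes were higher in experiment 1 by 2.03 and 1.94. The other 3 probes, each assigned to a different RefSeq transcript, differed by means of -0.11, -0.26 and -0.14, lower in siControl and higher in siFxr1. Between siFxr1 and siControl the overlapping probes were lower by means of 0.38 and 0.45, and lower in both experiments. The other 3 differed by 0.25 and -0.08, by 0.42 and -0.49, and by 0.67 and 0.00 in experiments 1 and 2. The first 30 bases of each are given so that the transcripts can be traced, with capitals for the bases that the overlapping probes share within these stretches.
Tpm1 NM_001164248, chr9:66875796-66875855, minus strand: ccttagggccaggcACAGACTGCTTTCTAT
Tpm1 NM_001164248, chr9:66875782-66875841, minus strand: ACAGACTGCTTTCTATtgtacagaagcaat
Tpm1 NM_001164249, chr9:66871166-66871225, minus strand: gaaaaccttagtatgcaccagatgctggat
Tpm1 NM_001164255, chr9:66872131-66872190, minus strand: gagggctgcctgcctggcccgtgtttccct
Tpm1 NM_001164251, chr9:66880274-66880333, minus strand: ggaagaacagttaagaataatggatcagac

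Tpm3 had a bright probe at chr3:89904428-89904487 with signals of 16.42 and 16.66 in siFxr1 and of 16.82 and 16.86 in siControl. Its 4 arrays were nearly level, with a mean experiment difference of -0.14. The second Tpm3 probe, at chr3:89877669-89877728, was well above background on the arrays of experiment 1 and on neither array of experiment 2. It was 8.20-fold higher in experiment 1 when the dim arrays were read cautiously. Each was taken at the probe's own signal or the array's lowest signal well above background, whichever was higher. Both probes carry the same accession, and they did not give the same result.

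Titin, the giant spring protein from Z-disc to M-band, had 4 probes. The probe assigned to NM_028004 had a signal of 9.04 and 6.75 in siFxr1 and of 9.80 and 8.14 in siControl, a mean difference of 1.98 between the experiments and of -1.08 between the conditions. The brightest probe, assigned to NM_011652, had signals between 10.95 and 11.41, with differences of -0.26 and -0.20. Another probe of NM_011652 had no common direction. It had a signal of 7.61 and 9.46 in siFxr1 and of 8.32 and 7.63 in siControl, so that siFxr1 of experiment 2 stood above the other 3 arrays, and its difference between conditions was -0.71 in experiment 1 and 1.83 in experiment 2. The remaining probe was well above background on 1 array. The probe that differed and the brightest one are shown, since they lie far apart in the gene.
Ttn NM_028004, chr2:76802542-76802601, minus strand: agaaacagttctgaggtctagagaagccat
Ttn NM_011652, chr2:76542077-76542136, minus strand: tgtagtccttttcatgccagtatatgttca

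**Figure D4:**
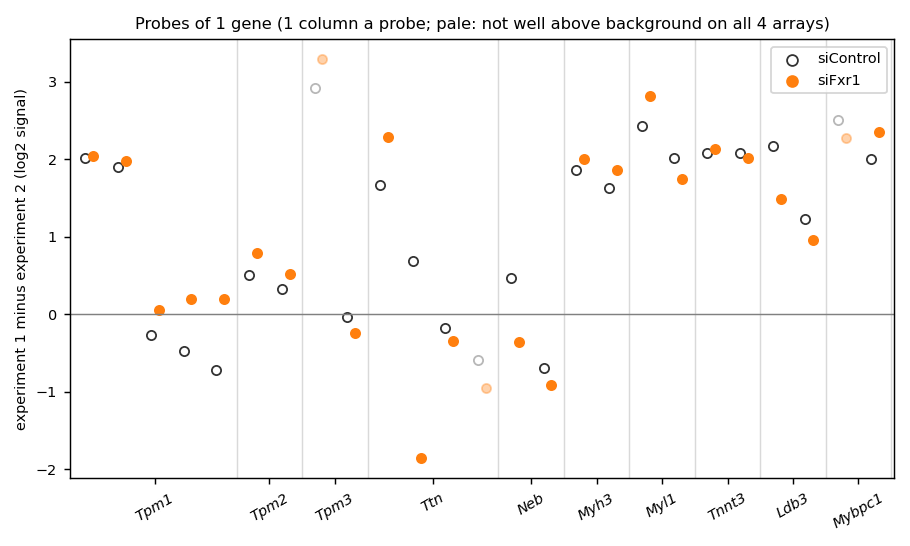
Experiment 1 minus experiment 2 in log2 signal for each probe of 10 genes with several probes, with siControl as open and siFxr1 as filled points. The 5 probes of Tpm1 fall into a pair near 2 and 3 near 0, whereas the probes of Myh3 and of Tnnt3 lie together.

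Ldb3, a Z-disc adaptor, was among the remaining genes with several probes. Its probes differed in sign between conditions, at 0.18 for the brighter and -0.87 for the other. Both were higher in experiment 1, by 1.83 and 1.09. The 2 probes of Myh3 differed between conditions by -0.62 and -0.64. The second probe of Mybpc1, the slow myosin-binding protein C, was well above background on neither array of experiment 2. It was 3.72-fold higher in experiment 1 with the dim arrays taken as for Tpm3. The brighter Mybpc1 probe was higher by a mean of 2.18. The second probes of Myh6 and Myh8 were not well above background on any array. Their signals lay between 2.78 and 3.31 for Myh6 and between 2.69 and 3.81 for Myh8. The values given for these genes thus rest on their brighter probes alone.

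Most genes of the same differentiation programme outside the sarcomere set were also higher in experiment 1. Of 30 other muscle differentiation genes, such as channels, receptors and metabolic enzymes of muscle, 28 were measured, with a median experiment difference of 1.74. The list is not free of sarcomere proteins. It holds the thin-filament genes Lmod2 and Lmod3, higher in experiment 1 by means of 2.82 and 1.96. In both conditions 19 of them, 67.9%, were at least 2-fold higher in experiment 1, beside 5.07% of all measured genes. Of 8 myogenic regulators, 5 were measured, with a median of 0.41. Myog, the regulator of terminal differentiation, had a signal of 15.51 and 15.64 in experiment 1 (siFxr1, then siControl) and of 13.42 and 13.50 in experiment 2. The gap between experiments was thus about as wide for Myog as for the median sarcomere gene, and the condition difference was -0.10. Myod1, which marks the earlier myoblast, was higher in experiment 1 by 0.13 in siControl and 0.69 in siFxr1.

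Markers of other cell states had smaller median differences. Of 19 genes of the non-muscle and smooth muscle cytoskeleton, 18 were on the array under the names used and 16 were measured. The list had a median experiment difference of -0.01, and 3 genes, 18.8%, were at least 2-fold higher, beside 5.07% of all genes. Of its smooth muscle genes, Myh11 and Lmod1 were not well above background, while Cnn1, Tagln, Acta2, Actg2 and Myl9 were measured and were higher in experiment 1 by means of 2.24, 1.59, 1.18, 1.13 and 1.10. Between the conditions, 2 of the 16 genes, 12.5%, were at least 2-fold higher in siFxr1 in both experiments, beside 2.11% of all genes. These were Cnn1, by 1.92 and 2.82, and Actg2, by 1.06 and 1.69, and the median of the list was 0.02. The part of smooth muscle-like expression in the sarcomere values was not tested. Of 20 proliferation genes 19 were measured, with a median experiment difference of -0.42 in siControl and 0.14 in siFxr1. The median of their mean differences was -0.11, with 8 lower in experiment 1 in both conditions, 4 higher in both and 7 mixed. Mki67, lower by a mean of 1.80, was the 1 gene at least 2-fold lower in both, where 7.42% of all genes were. Pcna, Birc5 and Cdc6 were higher by means of 0.41, 0.39 and 0.39. Between siFxr1 and siControl the median of the proliferation genes was -0.32, and that of the other muscle differentiation genes was 0.09. No gene of these lists was called in the fit of condition alone. The part of culture state in the sarcomere values was not tested.

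**Figure D5:**
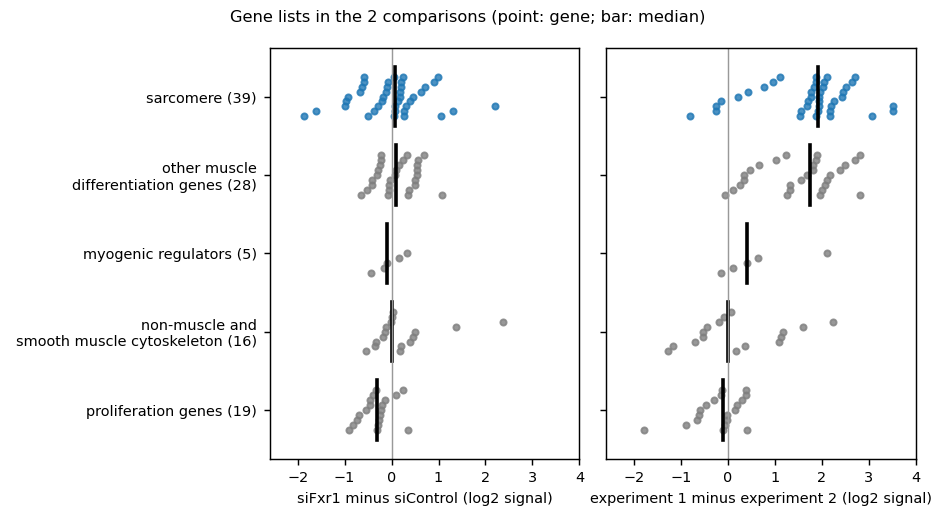
Mean log2 differences of the genes of 5 lists, siFxr1 minus siControl on the left and experiment 1 minus experiment 2 on the right, with 1 point for each measured gene and a bar at the median. On the right the sarcomere and other muscle differentiation genes lie around medians of 1.92 and 1.74, and the cytoskeleton and proliferation genes around 0.

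The promoters of the sarcomere genes were searched for motifs of muscle transcription, whatever the difference of the gene between experiments. RefSeq windows of 250 bases before to 50 after the start (GRCm38.p6) were found for 36 of the 43 genes. The letters CAGCTG, an E-box bound by MyoD family factors that reads alike on both strands, were in 15 of 36 genes, 41.7%, and in 18.3% of 27025 genes. The Mef2 motif was in 7 genes, 19.4%, against 3.70% of all genes. The CArG box, bound by serum response factor, was in 6 genes, 16.7%, against 1.81%. CATTCC on either strand, the core bound by Tead factors, was in 14 genes, 38.9%, against 16.6%. TATAAA on the strand of the gene was in 8 genes, 22.2%, against 9.77%, and its letters can overlap a Mef2 motif. These shares describe the windows and say nothing of binding in these cells.

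The promoters of Myh1, Myh4 and Myh8, neighbours on chromosome 11 with mean siFxr1 differences of -0.18, 2.21 and 0.39, hold the same Mef2 motif, in capitals (GRCm38.p6). Before the start, the Myh4 window also holds CAGCTG and a CArG box, 67 and 104 bases away, which those of Myh1 and Myh8 do not. A link between motifs and differences was not tested.
Myh1, chr11:67199879-67199912, plus strand: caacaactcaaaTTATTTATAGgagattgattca
Myh4, chr11:67237618-67237651, plus strand: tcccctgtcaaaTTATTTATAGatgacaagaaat
Myh8, chr11:67277013-67277046, plus strand: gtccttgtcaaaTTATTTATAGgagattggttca

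The actins Acta1 and Actc1, higher in experiment 1 by means of 1.92 and 2.44, hold a CArG box, in capitals (GRCm38.p6), 73 and 47 bases before the start. So do Myl3, which differed by -0.26, and Ldb3, Myh4 and Myom1, higher by means of 1.83, 1.95 and 3.07. Mylpf, with the largest experiment difference, and Des, which differed by 0.22, both hold CAGCTG, 51 and 36 bases before the start.
Acta1, chr8:123894827-123894860, minus strand: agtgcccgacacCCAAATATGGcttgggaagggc
Actc1, chr2:114052901-114052934, minus strand: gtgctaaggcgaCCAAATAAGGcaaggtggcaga
Mylpf, chr7:127211545-127211574, plus strand: cttcctgggctcCAGCTGctgcaggcctcc
Des, chr1:75360244-75360273, plus strand: agagggatcctgCAGCTGtcaggggagggg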

How the data were processed

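RNA of 4 C2C12 samples was labelled with Cy3 and hybridised to one-colour Agilent arrays. The authors deposited spot intensities from Agilent Feature Extraction 10.7.3.1, background-corrected within each array, and a table of normalized intensities, used here as an alternative. Samples were grouped by their labels.

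Background-corrected intensities were taken to log2 and quantile-normalized over 59305 non-control spots, outlier spots were set to missing, and spots of a probe were averaged. Limma 3.58.1 in R 4.3.3 (lmFit, eBayes) was fitted to all 55681 probes with condition as its only term, called at B above 0 as in the study's methods. Experiments were compared with condition and experiment as terms. Each gene was read by its brightest probe, and was measured when both arrays of some group showed that probe well above background. All 43 genes were accounted for, and values on every array were given for those 2-fold different in both experiments, the embryonic genes, the myosin heavy chains and the 3 with the largest change per group. Labels give both the experiment and the slide, so replicate numbers pair the samples, and same-numbered samples' deviations from the group means correlated at 0.71. Members and lists were chosen with earlier results of these data known. The fits were tested on simulated data with independent noise, where the fit of condition alone was run without an experiment difference. The measured arrays had one, so the simulation does not show how that fit does on them. Alternatives were 75th percentile scaling, normexp (offset 50), no background correction, the authors' table, a block on experiment, leaving out dim probes, all probes of a gene, and each array left out.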

Additional observations from a re-analysis of the deposited data

How the results depend on the processing

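The fit with the experiment as a replicate block called 0 probes, as without it, and changed no other call. The block with only probes well above background, chosen after seeing the data, called 354 probes and 1 sarcomere gene. For the experiment difference, 0 probes and 0 sarcomere genes passed with all probes, against 5846 and 30 under 75th percentile scaling, 4471 and 27 under normexp, 5092 and 30 without background correction, 5450 and 31 with the authors' table, 4342 and 31 with only probes well above background, and 664 and 4 at B above 0 (also chosen after seeing the data). The median experiment difference was 2.04, 1.75, 1.73 and 1.73 under the 4 other scalings in that order, 1.84 over all probes of a gene, and 1.97 to 2.01 with 1 array left out. The median condition difference of all members was 0.14 under 75th percentile scaling and 0.11 without background correction. That of the embryonic genes was 0.37, 0.035, 0.024 and 0.027 under the 4 scalings, and that of the fast genes 0.23 under 75th percentile scaling. That of the common genes was -0.24, -0.31, -0.32 and -0.32 under the 4 scalings and -0.34 over all probes. Genes 2-fold higher in siFxr1 in both experiments numbered 1, 1, 0 and 0 under the 4 scalings, and those 2-fold lower 1 under the last 3. The cause was not tested.

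With 1 array left out, the arrays that stay no longer balance the experiments. The medians then ranged from -0.93 to 1.03 for all members, -1.02 to 1.30 for the embryonic, -0.48 to 1.23 for the slow or cardiac, -1.13 to 1.40 for the fast and -1.22 to 0.48 for the common genes. Single genes ranged from -1.62 to 0.38 for Myh3, -1.02 to 1.81 for Myh8, -0.91 to 1.30 for Myl4, -0.064 to 2.05 for Myh6, -2.07 to 1.71 for Myh1, -0.66 to 0.030 for Myh2, -0.95 to 2.19 for Myoz1, -1.84 to 0.66 for Casq1, -2.21 to 0.21 for Mybph and -2.51 to 0.57 for Myom1. Tnni3 stayed between -2.37 and -1.35 and Tmod1 between -2.40 and -0.85. The 75th percentile scaling moved the median experiment difference of all genes from 0.02 to 0.14.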
